A study of Mus musculus with 16 samples.

Results

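Carboxylesterases are serine hydrolases of the endoplasmic reticulum and of the plasma, and the liver is one of the tissues that make most of them. They cleave the ester bonds of drugs and other foreign compounds, and several of them cleave lipid esters such as triglycerides. Enzymes of the Ces1 type tend to take substrates with a large acyl group, and those of the Ces2 type substrates with a large alcohol group. The 10 genes described here, Ces1b, Ces1c, Ces1d, Ces1e, Ces1f, Ces1g, Ces2a, Ces2c, Ces2e and Ces3a, were taken by name from a table of 51912 genes, and all 10 were among the 14920 genes with enough counts to be tested.

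The data are RNA sequencing libraries of 16 livers, 1 library per male mouse, from polyA-selected RNA. The mice received a diet low in isoleucine, an essential branched-chain amino acid, or a control amino acid diet from 10 weeks of age, for 3 weeks, and were 13 weeks old at harvest. The livers came from 4 groups of 4 mice: low isoleucine diet fasted, control diet fasted, low isoleucine diet refed and control diet refed. A 16 h overnight fast is given for all 4 groups, the refed ones included. Each group carries a single number in its labels (2, 1, 9 and 7 in that order), so that anything this number stands for cannot be told apart from diet and feeding state.

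All 10 genes lie on mouse chromosome 8 (positions from the GENCODE M21 annotation of GRCm38). The 6 Ces1 genes lie on the minus strand, from Ces1b at chr8:93056728-93080017 to Ces1g at chr8:93302369-93337308, with 13 or 14 exons each. The Ces2 genes and Ces3a lie on the plus strand, from Ces2a at chr8:104734003-104741634 through Ces2c at chr8:104847068-104854483 and Ces2e at chr8:104926260-104934672 to Ces3a at chr8:105048601-105058413. Coding sequences of members of one cluster were 72.1% to 90.9% identical (median 78.4%, 18 pairs), against 58.4% to 63.5% between clusters (27 pairs). The closest pair was Ces1b and Ces1c at 90.9%.

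**Figure D1:**
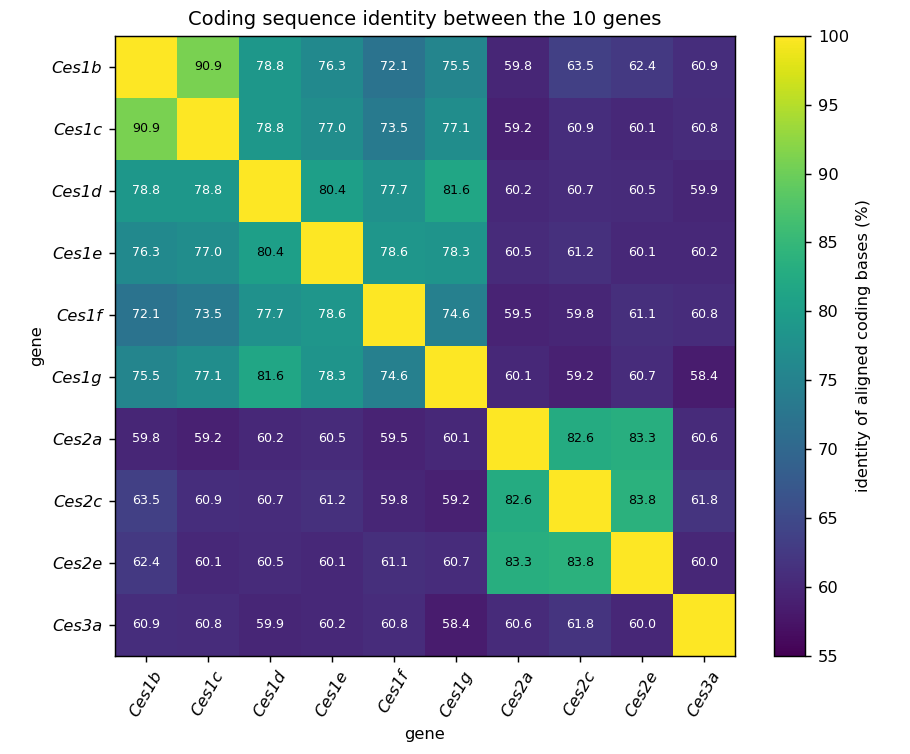
Identity of aligned coding bases (%) between the 10 genes, each gene against each other gene, from the GENCODE M21 transcript used for that gene. The Ces1 genes form one block and the 3 Ces2 genes another at 82.6% to 83.8%, Ces1b and Ces1c stand out at 90.9%, and Ces3a is at most 61.8% identical to any other of the 10.

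Likeness of this kind bears on the counts, because a short read can belong to more than 1 gene. Of the stretches of 50 bases in the transcript of Ces2c, 42.2% also occur in another gene, 38.2% in the pseudogene Ces2d-ps. The share was 30.9% for Ces3a, all of it in Ces3b, and 22.2% for Ces2a, where 20.9% occur in the predicted gene Gm7208. It was 17% for Ces1c and 11.6% for Ces1b, and between 1.28% and 3.36% for the other 5 genes. Counts of Ces2c, Ces3a, Ces2a, Ces1c and Ces1b therefore depend on how the authors' counting split shared reads, and are uncertain to that extent. For Ces1b, Ces1c, Ces1e and Ces2c the deposited count was not a whole number in any of the 16 libraries. For Ces3a it was not whole in 15 libraries, for Ces2a in 5, and for the other genes in 1 (Ces1f) to 7 (Ces1g).

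The upstream sequences of the closest pair and of the Ces2 genes are shown because these are the genes whose levels are set side by side below. They are the 250 bases before the outermost RefSeq start of each gene (RefSeq, GRCm38.p6), read 5′ to 3′ on the gene's own strand. Of the 10 genes, 7 matched the promoter table: Ces1b, Ces1c, Ces1e, Ces1g, Ces2a, Ces2c and Ces2e. Capitals mark the longest run that Ces1b and Ces1c share, the run that Ces2a and Ces2e share, and in Ces2c its longest run shared with Ces2a. Ces1b lies at chr8:93080018-93080267 and Ces1c at chr8:93131284-93131533, both on the minus strand. Ces2a lies at chr8:104733753-104734002, Ces2e at chr8:104926010-104926259 and Ces2c at chr8:104846818-104847067, on the plus strand.
Ces1b: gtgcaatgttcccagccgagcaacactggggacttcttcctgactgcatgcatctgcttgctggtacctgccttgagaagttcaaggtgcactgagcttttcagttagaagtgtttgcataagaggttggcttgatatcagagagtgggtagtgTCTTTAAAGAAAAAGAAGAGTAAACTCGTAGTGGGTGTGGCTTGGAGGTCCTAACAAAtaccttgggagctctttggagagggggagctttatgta
Ces1c: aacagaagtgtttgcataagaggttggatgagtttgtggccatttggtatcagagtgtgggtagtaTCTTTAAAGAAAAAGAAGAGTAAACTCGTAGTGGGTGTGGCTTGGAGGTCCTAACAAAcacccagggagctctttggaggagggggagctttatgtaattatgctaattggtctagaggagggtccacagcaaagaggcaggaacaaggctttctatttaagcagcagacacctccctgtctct
Ces2a: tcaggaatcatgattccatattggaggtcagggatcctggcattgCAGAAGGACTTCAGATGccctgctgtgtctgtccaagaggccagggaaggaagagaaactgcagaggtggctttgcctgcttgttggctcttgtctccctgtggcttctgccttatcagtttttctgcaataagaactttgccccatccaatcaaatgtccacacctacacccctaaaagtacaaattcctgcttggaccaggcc
Ces2e: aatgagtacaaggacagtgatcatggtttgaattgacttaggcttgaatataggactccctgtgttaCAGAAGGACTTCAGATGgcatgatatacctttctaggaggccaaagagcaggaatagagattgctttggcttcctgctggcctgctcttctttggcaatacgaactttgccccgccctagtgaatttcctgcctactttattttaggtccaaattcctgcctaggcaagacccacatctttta
Ces2c: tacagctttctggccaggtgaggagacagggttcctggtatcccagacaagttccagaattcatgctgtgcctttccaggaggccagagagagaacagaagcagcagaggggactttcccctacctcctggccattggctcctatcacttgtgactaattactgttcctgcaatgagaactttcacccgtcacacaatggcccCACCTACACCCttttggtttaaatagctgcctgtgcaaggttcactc
Ces1b and Ces1c share an unbroken run of 58 bases, which lies 96 to 39 bases before the start of Ces1b and 184 to 127 bases before that of Ces1c, and 92.5% of 159 aligned bases were identical. Ces2a and Ces2e share a run of 17 bases, and 69.9% of 216 aligned bases were identical. The letters TTTAAA, which read the same on both strands, occur in 4 of the 7 members' sequences (Ces1b, Ces1c, Ces1g and Ces2c) and in 12.1% of 27025 promoters of the same length. In Ces1b and Ces1c they lie within the shared run of 58 bases, so these occurrences are not independent of each other. The letters CCAAT, searched on both strands, occur in 4 of 7 and in 34.5% of all. TATAAA, also searched on both strands, occurs in 1 of 7, that of Ces1g, and in 13% of all.

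Together with the other 10 carboxylesterase genes in the table, they took 0.552% ± 0.061 of all counts in low isoleucine fasted livers and 0.62% ± 0.0583 in control fasted livers (SD, n = 4 each). The share was 0.711% ± 0.0338 in low isoleucine refed livers and 0.744% ± 0.111 in control refed livers. Libraries held 24368616 to 34002928 counts. Levels below are TMM-normalised read counts relative to library size (CPM), and "passed" means an adjusted p under 0.05 in edgeR's quasi-likelihood test with Benjamini-Hochberg adjustment over all 14920 genes. Defining hepatocyte markers were abundant in all libraries. Of 5 exocrine pancreas markers Cpa1 and Pnlip were at 0 in all 16 libraries, Prss2 and Ctrb1 reached at most 0.0248 and 0.0341 CPM, and Cela1 was at 4.37 to 7.58 CPM. Of 5 intestine markers Alpi was at 0 in all 16, Vil1, Lct and Muc2 reached at most 0.287, 0.0898 and 0.242 CPM, and Fabp2 was at 119 to 192 CPM in every library. Of 5 adipocyte markers Adipoq, Plin1, Cfd and Retn reached at most 2.39, 0.808, 1.85 and 0.248 CPM, and Car3 was at 181 to 3723 CPM. The part of such cells in the results was not tested.

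Control refed replicate 4 stood apart from the other libraries. In it 9 of the 10 members lay below the other 3 control refed libraries, and Ces1b lay above them at 114 CPM, against 44.1 to 68.7 CPM. Ces1d was at 289 CPM there, against 785 to 1181 CPM in the other 3, and 6 members (Ces1d, Ces1e, Ces1f, Ces1g, Ces2a and Ces2e) had their lowest level of all 16 libraries in it. The hepatocyte marker list (8 genes) summed to 81680 CPM in it, within the 80220 to 82970 CPM of the other 3 control refed libraries. This sum is mostly Alb, which averaged 60140 CPM in control refed livers. The other genes of the list averaged 834 CPM (Apoc3) to 7145 CPM (Serpina1c) there, so the sum does not show whether they were level. The same library had the highest summed CPM of 5 marker lists of other cell types. Its Kupffer cell list (7 genes) summed to 316, against 161 to 224 in the other 3, its stellate cell list (7 genes) to 491, against 181 to 221, and its endothelial list (6 genes) to 213, against 82.5 to 124. Lymphocyte (7 genes) and neutrophil (5 genes) lists summed to 8.36 and 6.5, against at most 3.86 and 3.39. Not every gene of these lists had its highest level of all 16 libraries in it. Those that did were 3 of 7 Kupffer cell, 4 of 7 stellate cell, 2 of 6 endothelial, 5 of 7 lymphocyte and 4 of 5 neutrophil genes. The part of these cells, or of anything else in that library, in the members' levels was not tested, and in whole tissue fewer cells of a type and less RNA per cell cannot be told apart. Member results whose call changes, or whose log2 fold change moves by over 1.5 times, without this library are given both ways, and the lists of other genes are given with all libraries.

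Per kilobase of transcript, which allows genes to be compared, Ces1c stood at 1333 CPM per kb over the 16 libraries and Ces3a at 1004. Ces1c encodes a carboxylesterase that mouse liver secretes into plasma. Ces1d, the triglyceride hydrolase that mobilises stored lipid for secretion in very low density lipoprotein, stood at 383.5 CPM per kb, and Ces1f, a second triglyceride hydrolase, at 201. Below these came Ces1e at 62, Ces2a at 57, Ces1g at 50.2, Ces1b at 39.2 and Ces2e at 31.8, with Ces2c lowest at 8.02 CPM per kb. This is the order of means over all 16 libraries, and neighbours change places between groups. The first 4 places and the last were the same in each group. Ces2a stood at 43.0 CPM per kb in low isoleucine fasted livers, below Ces1g at 51.6, and at 75.8 in control fasted livers, above Ces1e at 61.4. Ces1c and Ces3a stood close together in control refed livers, at 1306 and 1296 CPM per kb. Over the 16 libraries Ces1c and Ces3a made up 37.5% and 30.9% of the family's summed CPM, and Ces2c 0.233%. In control refed livers Ces3a made up more than Ces1c, 36.2% ± 3.24 against 33.8% ± 5.90 (SD, n = 4).

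**Figure D2:**
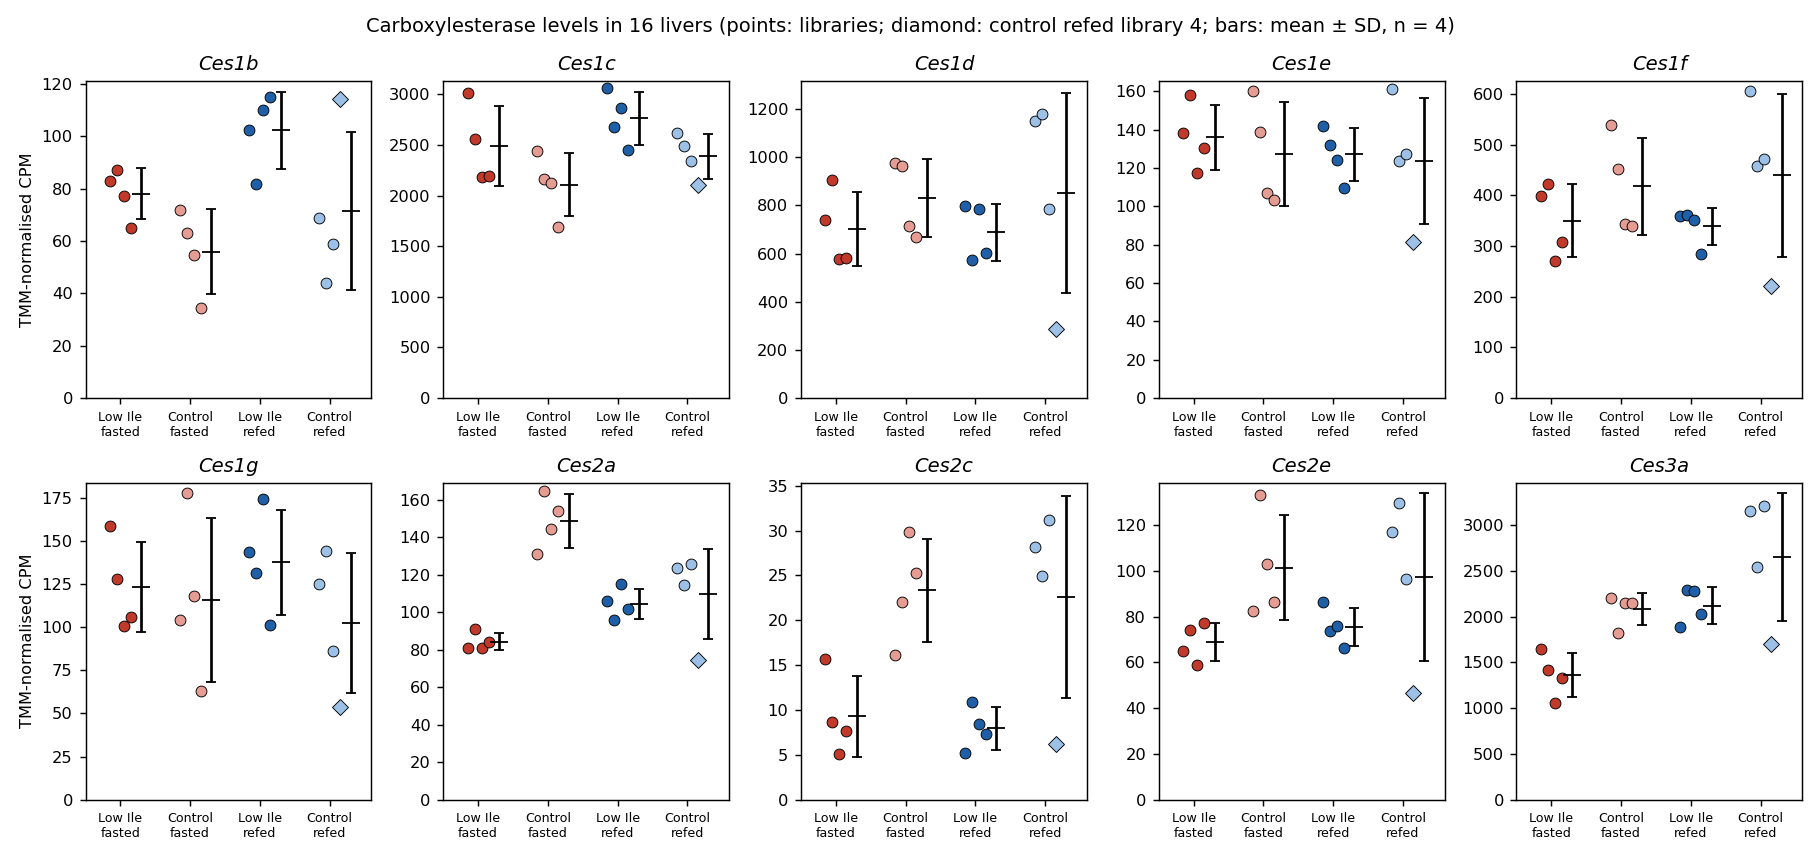
TMM-normalised CPM of each gene (a panel each, its own axis from 0) in the 4 groups, with a point per library and the mean ± SD (n = 4) as a bar; the diamond is control refed replicate 4. Ces2a separates low isoleucine fasted livers (80.9 to 90.9 CPM) from control fasted livers (131 to 165 CPM), while most Ces1 panels overlap.

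In fasted liver the low isoleucine diet was compared with the control diet. Of the 10 members 1, Ces2a, passed as lower and none as higher, beside 0.771% of all tested genes called in either direction and 0.442% called lower. In 4 members (Ces2a, Ces2c, Ces2e and Ces3a) every low isoleucine library lay below every control library, beside 4.4% of all genes. The median log2 fold change of the members was -0.25, and that of all genes tested 0.01.

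Ces2a fell in fasted liver on the low isoleucine diet. It stood at 80.9, 90.9, 81.1 and 84.4 CPM in the low isoleucine fasted livers, against 131, 165, 144 and 154 CPM in the control fasted livers. The groups were apart by more than the range within either. Means were 84.3 ± 4.68 CPM on low isoleucine and 149 ± 14.2 CPM on control (SD, n = 4 each). The log2 fold change was -0.82 (SE 0.14, 95% interval -1.11 to -0.53, adjusted p = 0.0188 by edgeR). The difference kept its size when any one library was left out (-0.87 to -0.77), but the call was lost without control fasted replicate 2 or 4 or low isoleucine fasted replicate 2, 3 or 4. In the same libraries the Kupffer cell list summed to 143 to 194 CPM on low isoleucine and 222 to 296 CPM on control. Of its genes Marco alone went the other way, with means of 4.99 CPM on low isoleucine and 3.7 CPM on control. The sums of the stellate cell, endothelial, lymphocyte and neutrophil lists overlapped between these groups. The hepatocyte list summed to 98370 to 119700 CPM on low isoleucine and 66760 to 100000 CPM on control. Alb, most of that sum, averaged 80360 CPM on low isoleucine and 54140 CPM on control. Tat, Pck1 and Serpina1c had lower means on low isoleucine, and the other genes of that list higher ones. The part of such cells in the result was not tested. The authors' deposited table has a log2 fold change of -0.83 for Ces2a with an adjusted p of 0.0196.

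Ces2c, a hydrolase of acylglycerols in mouse liver and intestine, had the larger fold difference and the larger spread. It had 15.7, 8.67, 5.12 and 7.64 CPM in low isoleucine fasted livers, against 16.2, 22.0, 29.8 and 25.3 CPM in control fasted livers. The groups only just failed to meet, between the highest low isoleucine library and the lowest control library. Its fold change on the log2 scale was -1.33 (SE 0.42, adjusted p = 0.202), which did not pass, and it was -1.34 with an adjusted p of 0.0333 without control refed replicate 4, which belongs to neither group but shares the estimate of the spread.

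Ces3a had 1647, 1420, 1061 and 1329 CPM in low isoleucine fasted livers, against 2207, 1823, 2146 and 2151 CPM in control fasted livers. No low isoleucine library reached the lowest control library. On the log2 scale the difference was -0.61 (SE 0.18, adjusted p = 0.141), and without control refed replicate 4 it was -0.62 (adjusted p = 0.0264). Ces2e averaged 68.9 ± 8.35 CPM in low isoleucine fasted livers and 101 ± 23 CPM in control fasted livers, with a log2 fold change of -0.56 (SE 0.23, adjusted p = 0.379).

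None of the 6 Ces1 genes passed in fasted liver. Ces1c had 3015, 2561, 2187 and 2190 CPM on low isoleucine, against 2443, 2166, 2125 and 1690 CPM on control, with overlapping groups and a log2 fold change of 0.24 (95% interval -0.05 to 0.53, adjusted p = 0.582). Ces1b averaged 78 ± 9.68 CPM on low isoleucine and 56 ± 16.1 CPM on control (log2 fold change 0.48, adjusted p = 0.526). Ces1d averaged 702 ± 155 CPM on low isoleucine and 832 ± 163 CPM on control (log2 fold change -0.24), and Ces1f 350 ± 72.6 CPM on low isoleucine and 418 ± 95.5 CPM on control (log2 fold change -0.26). Ces1e, known as egasyn, which holds beta-glucuronidase in the endoplasmic reticulum, and Ces1g, an esterase with effects on liver triglyceride in mice, differed by 0.10 and 0.09 on the log2 scale. The intervals of these genes reached from -0.91 for Ces1d to 1.01 for Ces1b.

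The make-up of the family's transcripts in fasted liver is given as shares, which were not tested. Ces1c made up 43.4% ± 2.33 of the family's summed CPM on low isoleucine and 32.4% ± 2.48 on control, and Ces3a 23.7% ± 1.48 on low isoleucine and 32.3% ± 3.56 on control (SD, n = 4 each). Summed over its whole cluster, including its other genes such as Ces3b, Ces1 averaged 3878 ± 612 CPM on low isoleucine and 3655 ± 610 CPM on control. Ces2 averaged 187 ± 14.6 CPM on low isoleucine and 300 ± 41.4 CPM on control, and Ces3 1668 ± 262 CPM on low isoleucine and 2517 ± 260 CPM on control. These sums did not pass (log2 fold changes 0.09, -0.68 and -0.59; adjusted p = 0.931, 0.0891 and 0.156), and without control refed replicate 4 the sums of Ces2 and Ces3 did (-0.69 and -0.60).

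**Figure D3:**
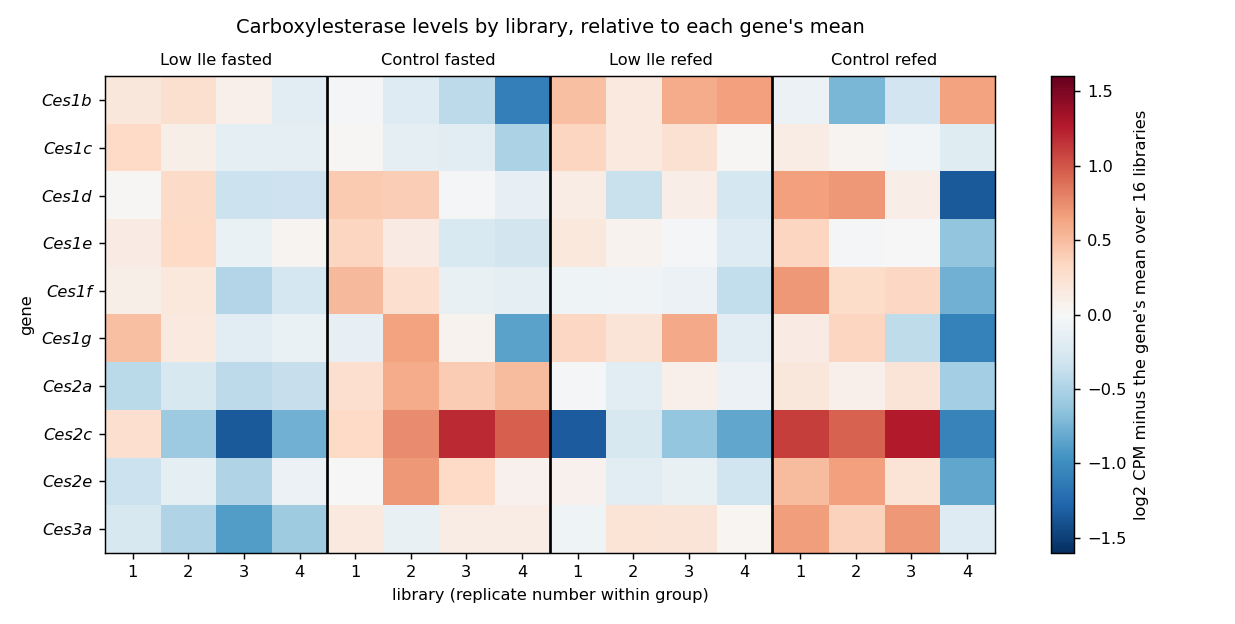
Log2 CPM of each gene in each of the 16 libraries minus that gene's mean over the 16 (colour; red above, blue below), with libraries ordered by group. Ces2c is above its mean in all 4 control fasted libraries, in 3 control refed libraries and in low isoleucine fasted replicate 1 (15.7 CPM). Control refed replicate 4 is below the mean for 9 genes and above it for Ces1b.

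In refed liver no member passed, beside 0.174% of all genes called, and no member's groups were apart, beside 4.44% of all genes. By edgeR 1 member, Ces2c, had an unadjusted p under 0.05, beside 9.76% of all genes, and DESeq2 called 1, Ces2c (adjusted p = 0.0188). Ces2c had 5.17, 10.9, 8.44 and 7.29 CPM in low isoleucine refed livers, against 28.1, 24.96, 31.2 and 6.18 CPM in control refed livers. Control refed replicates 1, 2 and 3 lay above all low isoleucine libraries, and replicate 4 lay among them. The log2 fold change was -1.51 (SE 0.43, adjusted p = 0.227) with all libraries, and -1.84 (adjusted p = 0.0178) without control refed replicate 4, where 0.592% of all genes were called. The authors' deposited table gives Ces2c a log2 fold change of -1.51 (adjusted p = 0.129).

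Ces2a, which fell with the diet in fasted liver, had 106, 95.9, 115 and 102 CPM in low isoleucine refed livers, against 123, 115, 126 and 74.3 CPM in control refed livers. The groups overlapped. Without control refed replicate 4 they only just did, at 114.8 CPM in the lowest control library and 114.9 CPM in the highest low isoleucine library. Its fold change on the log2 scale was -0.07 (95% interval -0.36 to 0.22, adjusted p = 0.916), and -0.23 without control refed replicate 4 (adjusted p = 0.413). The difference between the diet effects of the refed and the fasted state was 0.75 on the log2 scale for Ces2a (SE 0.19, 95% interval 0.34 to 1.16). Its unadjusted p was 0.00124, and over all genes it did not pass (adjusted p = 0.43). By this test 0% of genes were called, with 6.22% at an unadjusted p under 0.05. DESeq2 called 35 genes, none of them a member, and limma-voom 0. Without control refed replicate 4 the difference was 0.60 (adjusted p = 0.286).

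The other refed differences did not pass either. Ces1b averaged 102 ± 14.6 CPM in low isoleucine refed and 71.4 ± 30.2 CPM in control refed livers (log2 fold change 0.52, adjusted p = 0.529). Ces3a averaged 2120 ± 199 CPM on low isoleucine and 2651 ± 698 CPM on control (-0.32, adjusted p = 0.577), and Ces2e 75.5 ± 8.37 CPM on low isoleucine and 97.5 ± 36.7 CPM on control (-0.37, adjusted p = 0.654). Without control refed replicate 4 these differences were 0.82 for Ces1b (adjusted p = 0.103), -0.50 for Ces3a (adjusted p = 0.13) and -0.61 for Ces2e (adjusted p = 0.103). Ces1c, Ces1d, Ces1e, Ces1f and Ces1g differed by 0.21, -0.31, 0.04, -0.37 and 0.43 on the log2 scale, and without that library by 0.14, -0.61, -0.13, -0.61 and 0.20, none of which passed.

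Averaged over the feeding states, Ces2a and Ces2c were lower on the low isoleucine diet. These 2 of 10 members passed, beside 1.51% of all genes. On the log2 scale the difference was -0.44 for Ces2a (SE 0.10, adjusted p = 0.0284) and -1.42 for Ces2c (SE 0.30, adjusted p = 0.0279). Ces2c did not pass by limma-voom (adjusted p = 0.0501) or with no filter on low counts (adjusted p = 0.0826). Neither gene passed in a fit with a replicate block by the marks in the labels. Ces2e (-0.46, adjusted p = 0.196), Ces3a (-0.47, adjusted p = 0.0709), Ces1b (0.50, adjusted p = 0.191) and Ces1c (0.23, adjusted p = 0.291) did not pass. Ces3a passed by DESeq2 (adjusted p = 0.0122) and with scaling by library size alone (adjusted p = 0.0328). Without control refed replicate 4 there were 5 members past the threshold, beside 3.14% of all genes. They were Ces2a (-0.53), Ces2c (-1.59), Ces2e (-0.59), Ces3a (-0.56) and, in the other direction, Ces1b (0.65, adjusted p = 0.0219). The average calls of both genes held without control fasted replicate 1, low isoleucine fasted replicate 1, control refed replicate 4 and low isoleucine refed replicate 3, and that of Ces2c also without low isoleucine refed replicate 2, and were lost when any one of the others was left out.

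**Figure D4:**
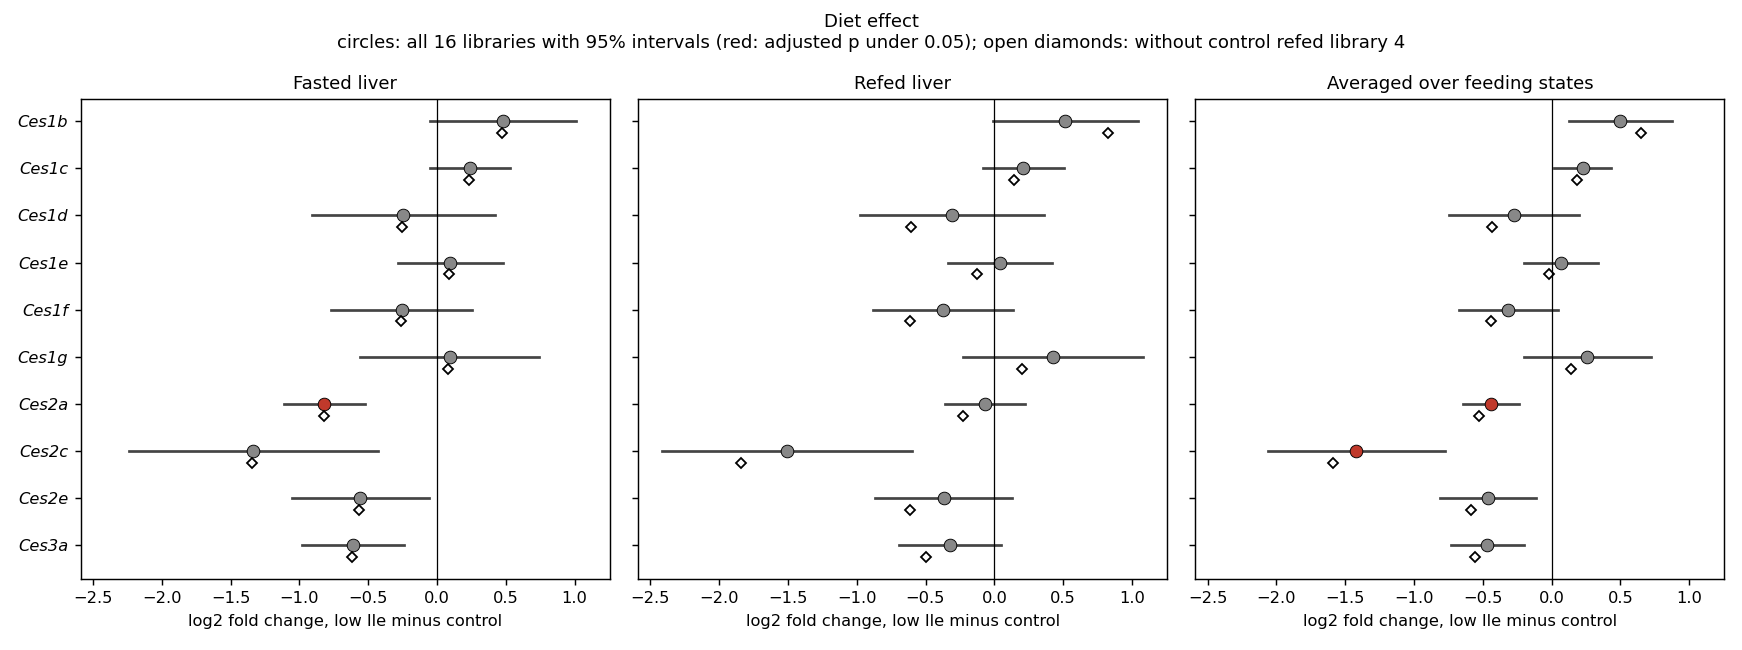
Diet effect as log2 fold change (low isoleucine minus control, x axis) of each gene in fasted liver, refed liver and averaged over both; circles with 95% intervals are from all 16 libraries, red where adjusted p is under 0.05, and open diamonds are estimates without control refed replicate 4. Ces2a in fasted liver (-0.82) and Ces2a and Ces2c on average (-0.44 and -1.42) are red, and leaving out that library moved Ces2c in refed liver to -1.84.

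Refeeding on the low isoleucine diet raised Ces3a. It had 1885, 2292, 2279 and 2025 CPM in low isoleucine refed livers, against 1647, 1420, 1061 and 1329 CPM in low isoleucine fasted livers, with no overlap. The log2 fold change was 0.64 (SE 0.18, adjusted p = 0.0162), and the call was lost without low isoleucine fasted replicate 3. Of the 10 members 1 passed, beside 21.4% of all genes, and 2 members (Ces3a and Ces2a) were higher with groups apart, beside 11.6% of all genes. Ces2a had 95.9 to 115 CPM in refed livers and 80.9 to 90.9 CPM in fasted livers of this diet (log2 fold change 0.31, adjusted p = 0.12), and passed without control refed replicate 4 (0.30, adjusted p = 0.0306).

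On the control diet refeeding lowered Ces2a. It had 123, 115, 126 and 74.3 CPM in control refed livers, against 131, 165, 144 and 154 CPM in control fasted livers, with all refed libraries below all fasted libraries. Its fold change on the log2 scale was -0.44 (SE 0.14, adjusted p = 0.0359), and -0.30 (adjusted p = 0.055) without control refed replicate 4. Of the 10 members 1 passed, beside 17.1% of all genes, and 1 was lower with groups apart, beside 9.62%. Ces3a averaged 2651 ± 698 CPM in control refed and 2082 ± 175 CPM in control fasted livers (log2 fold change 0.35, adjusted p = 0.201), and passed without control refed replicate 4 (0.51, adjusted p = 0.0206). The call of Ces2a was also lost without control fasted replicate 2, 3 or 4 or control refed replicate 2.

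Averaged over the diets, Ces3a rose with refeeding (log2 fold change 0.49, SE 0.12, adjusted p = 0.00557), and it passed in each of the 16 fits without 1 library. It was the only 1 of the 10 members to pass, beside 32.9% of all genes. The Ces1 genes had averaged log2 fold changes between -0.07 for Ces1e and 0.37 for Ces1b (adjusted p = 0.12 for Ces1b), and without control refed replicate 4 between -0.003 for Ces1e and 0.20 for Ces1b. The same livers enter the diet and the refeeding comparisons, so the values of a gene are not independent between them.

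**Figure D5:**
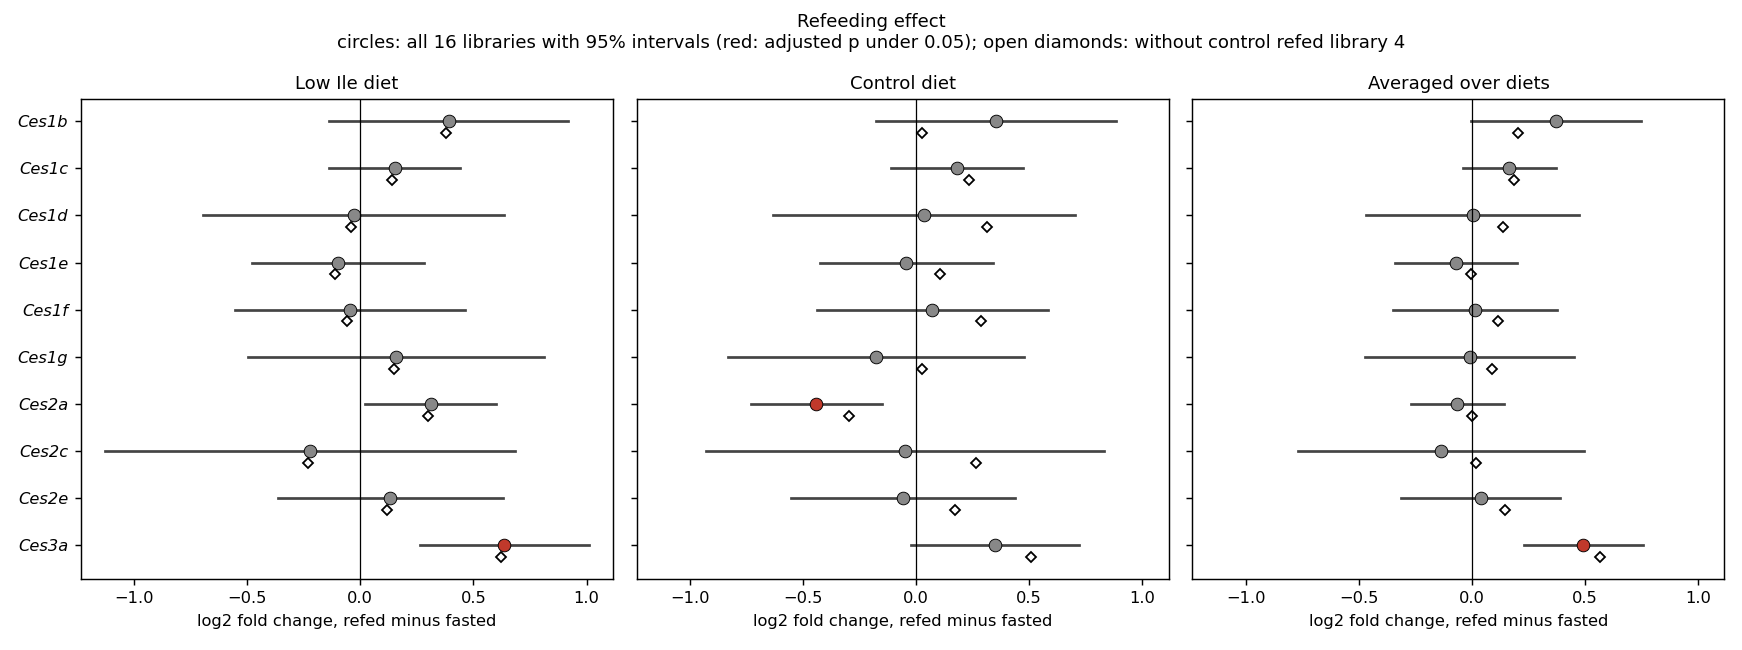
Refeeding effect as log2 fold change (refed minus fasted, x axis) of each gene on the low isoleucine diet, on the control diet and averaged over both; circles with 95% intervals are from all 16 libraries, red where adjusted p is under 0.05, and open diamonds are estimates without control refed replicate 4. Ces3a is red on low isoleucine (0.64) and on average (0.49), and Ces2a is red in the opposite direction on the control diet (-0.44).

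Among the other carboxylesterase genes, 5 of 10 were tested and none passed a diet comparison by edgeR, with 0 in fasted and 2 in refed liver at an unadjusted p under 0.05, beside 10.8% of all genes in fasted and 9.76% in refed liver. Ces2g rose with refeeding on both diets, by 0.94 on the low isoleucine diet (adjusted p = 0.00102) and by 0.58 on the control diet (adjusted p = 0.0272), with 46.6 CPM in refed and 24.3 CPM in fasted livers on low isoleucine, and 39.5 CPM in refed and 26.4 CPM in fasted livers on control. Ces2h rose by 1.98 on the low isoleucine diet (adjusted p = 0.00147) with a mean of 1.02 CPM in low isoleucine refed and 0.258 CPM in low isoleucine fasted livers, where its counts were 5 to 10 a library. Ces3b, the closest relative of Ces3a, did not pass (-0.52 on the diet in fasted liver, adjusted p = 0.463).

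The lipid ester hydrolases outside the family, with lipid droplet proteins and lipoprotein assembly genes, had 0 of 23 tested members past the threshold by diet in either feeding state by edgeR, with 5 in each at an unadjusted p under 0.05, beside the same 10.8% and 9.76% of all genes. With refeeding on the low isoleucine diet 1 rose and 11 fell, beside 9.6% of all genes that rose and 11.8% that fell. On the control diet 2 rose and 6 fell, beside 8.91% of all genes that rose and 8.2% that fell. Nceh1, a cholesteryl ester hydrolase, fell, with log2 fold changes of -2.15 on the low isoleucine diet and -1.66 on the control diet (adjusted p = 1.06e-07 and 2.13e-06). So did Cidec, a lipid droplet protein (-2.57 on low isoleucine and -1.24 on control), Plin2, a lipid droplet coat protein (-1.86 and -1.10 in the same order), and Pnpla2, the adipose triglyceride lipase (-1.08 on both). Pnpla3 rose by 2.81 on the control diet (adjusted p = 0.00293) with a mean of 2.72 CPM in control refed and 0.382 CPM in control fasted livers. Of the thioester and foreign-compound hydrolases (13 tested), none passed by diet by edgeR, with 2 in each feeding state at an unadjusted p under 0.05, and 7 fell with refeeding on low isoleucine (11.8% of all genes fell) and 4 on control (8.2% of all genes). They included Acot3 and Acot4, acyl-CoA thioesterases, at -2.10 and -1.53 on low isoleucine and -1.40 and -0.94 on control.

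Among nuclear receptors that bear on liver esterase and drug metabolism genes and their reporter targets (14 tested), 1 rose by diet in fasted liver, beside 0.328% of all genes, and none passed in refed liver, where 3 had an unadjusted p under 0.05, beside 9.76% of all genes. Cyp4a14, a fatty acid hydroxylase and reporter of PPAR alpha, averaged 13370 CPM in low isoleucine fasted and 7740 CPM in control fasted livers (log2 fold change 0.79, adjusted p = 0.0252). With refeeding on the low isoleucine diet 4 of the 14 rose and 3 fell, beside 9.6% of all genes that rose and 11.8% that fell. On the control diet 2 rose and 3 fell, beside 8.91% of all genes that rose and 8.2% that fell. Among those that fell was Ppara, with log2 fold changes of -1.77 on low isoleucine and -1.31 on control (adjusted p = 2.27e-05 and 0.000386). Nr1i2, the pregnane X receptor, fell on the control diet, at -0.62 (adjusted p = 0.0139). The medians of these 4 lists in fasted liver were -0.42 for the other carboxylesterases, 0.15 for the lipid hydrolases, 0.13 for the thioester and foreign-compound hydrolases and 0.03 for the receptors, beside 0.01 for all genes.

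The genes whose log2 CPM followed a member most closely were sought among 10974 genes for the 3 members with the widest group means. The r values below are Pearson correlations over all 16 libraries, which share 4 groups, so group differences enter them. Ces2c was followed by Mup14 (r = 0.93), Cyp2c23 (0.92) and Ttc39c (0.91), and these values were 0.92, 0.91 and 0.92 without control refed replicate 4. Ces3a was followed by Slc22a28 (0.96), Hsd3b5 (0.95) and Ifit1 (0.91). Ces1b was followed by Rbfox2 (0.95), Plxna2 (0.82) and Rab36 (0.80).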

How the data were processed

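Stranded polyA libraries of 16 livers were sequenced, and lanes were merged per sample before expression estimation, per the labels' protocols. The authors deposited a table of expected counts made with RSEM, and 10.2% of its values were not whole (tolerance 1e-09). Not given in the sources used here are the aligner, its settings, the build and the annotation. Tools listed in the submitters' processing notes were limma, edgeR and R 3.5.3. The authors' deposited comparison tables hold p-values, adjusted and not, an F score, and log2 values of level and fold change; they were used only where named.

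Expected counts were rounded, and edgeR 4.0.16 was run in R 4.3.3: genes kept by filterByExpr (minimum count 10, total 15), TMM scaling, a robust quasi-likelihood fit with 1 mean per group over 16 libraries, F tests and Benjamini-Hochberg adjustment over 14920 genes, threshold 0.05. SEs are the absolute log2 fold change over the square root of F. Symbols were matched for 51633 of 51912 identifiers; 279 had none. The fit was tested on simulated data. These gave every gene the same dispersion (spread between libraries) and held no library that stood apart. That test therefore does not show how the fit performs on the members. Nothing in the labels shows more than 1 library per mouse, and p-values measure the spread between these libraries. Depth was 24368616 to 34002928 counts per library, so counting error is small beside that spread for the abundant members.

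Members, lists and the naming rule were chosen with earlier results of these data known. The rule names all 10 members, and of each list up to 6 genes that passed, by size of change. For likeness it takes the 3 members with the widest group means and their 3 most correlated genes with a mean of at least 1 CPM. The report does not name every gene the rule allows. Alternatives were DESeq2 1.42.0 size factors and Wald test, library size alone, other filters, limma-voom (limma 3.58.1), only the compared groups, a non-robust fit, unrounded counts, a fit without Mup, Alb and mitochondrial genes, a replicate block and leaving out each library in turn.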

Additional observations from a re-analysis of the deposited data

Results flagged for a closer look

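Each of the 40 groups of 4 libraries (10 genes in 4 groups) was checked for a library far from the other 3, by the gap to its nearest neighbour over the group's range (Dixon's criterion). Chance gives about 1 in 20 groups, and 2 of 40 were found. Ces1f in low isoleucine refed replicate 4 was at 285.1 CPM, below the other 3 at 351.8 to 361.2 CPM (gap over range 0.877). Ces3a in control fasted replicate 2 was at 1823 CPM, below the other 3 at 2146 to 2207 CPM (gap over range 0.842). Control refed replicate 4, described above, did not pass this check for any of the 10 genes.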

How the results depend on the processing

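Of 1860 log2 fold changes of members under alternatives, 1797 kept their side of the threshold and, where uncalled, moved by no more than their SE. A call was lost by 39 and gained by 18, 6 moved by more than their SE without one, and none reversed a call. The sign changed in 105, all of them uncalled. For the diet in fasted liver DESeq2 called 3 members, and leaving out single libraries gave 0 to 3. In refed liver DESeq2 called 1, and leaving out libraries gave 0 to 1. For the diet averaged, no filter and limma-voom gave 1 each, DESeq2 and library size alone 3 each with Ces3a added, and leaving out libraries 0 to 5. Of all genes, 226 were called there in the main fit, 200 with no filter, 207 by limma-voom and 209 with library size alone. DESeq2 called 603 of all genes, and leaving out libraries gave 115 to 473. For refeeding on low isoleucine, library size alone gave 2 and leaving out libraries 0 to 2; on the control diet they gave 2 and 0 to 1, with 0 when only the compared groups were fitted; averaged, 2 and 1 to 2. Library size alone moved the median of all genes for refeeding to 0.13 on low isoleucine and 0.14 on control, against 0.02 and 0.01 with TMM, and put Ces3a at 0.75 and 0.44 and Ces2a at 0.42 and -0.35 in the same order. Deviations of libraries with the same mark in the labels had r of -0.325 to 0.323, with 8 of 24 over 0.1. Libraries of different marks were not set beside them, so these values do not decide whether the marks pair the samples. With the replicate block 0 members passed for the averaged diet effect, against 2 without it, while the member counts of the other comparisons did not change.

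Cluster sums passed by DESeq2 where edgeR did not: Ces2 fasted -0.68 and averaged -0.44, Ces3 fasted -0.59 and averaged -0.46. Leaving out single libraries gave the Ces2 sum -0.76 to -0.60 (diet, fasted), -0.40 to -0.13 (diet, refed), -0.54 to -0.40 (diet, averaged), 0.28 to 0.37 (refeeding, low isoleucine) and -0.233 to 0.032 (refeeding, control). The Ces3 sum gave -0.67 to -0.49, -0.50 to -0.20, -0.55 to -0.40, 0.44 to 0.62 and 0.15 to 0.43 in the same comparisons. Counts of all genes called for the diet moved by over 1.5 times: in fasted liver 115, against 371 by DESeq2 and 6 to 222 without single libraries (6 without control fasted replicate 4 and 222 without control refed replicate 4), and in refed liver 26, against 179 by DESeq2, 3 with only the compared groups and 3 to 89 without single libraries (3 and 6 without low isoleucine refed replicates 1 and 2, 9 without replicate 4, and 89 without control refed replicate 4). The cause was not tested. Having 4 libraries a group, and reads shared between relatives, limits these values.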
